A study of Mus musculus with 16 samples.

Results

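The genes that encode the proteins of the cytosolic and of the mitochondrial ribosome were followed in cultured mouse primary hepatocytes. Members were the genes named Rpl or Rps with a number, Rplp0 to Rplp2 and Rpsa for the cytosol, and Mrpl or Mrps with a number for mitochondria. Named pseudogenes, like copies and the Rps6k kinases were left out, as were 2 symbols annotated as pseudogenes. This gave 77 cytosolic and 78 mitochondrial genes, 155 of the 55416 genes measured, and all 155 passed the filter on low values that left 11858 genes for testing.

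RNA was sequenced from 4 groups of 4 samples, read as TPM, which gives how large a part of a sample's transcripts a gene supplies after correction for length. HKO with palmitic acid (PA) were Alb-cre+ cells given 0.4 mM PA for 24 h, and FLOX with PA were Alb-cre- cells given the same. HKO with vehicle were Alb-cre+ cells given vehicle for 24 h, and FLOX with vehicle were Alb-cre- cells given vehicle for 24 h. The cross was made to delete Smpd3, a neutral sphingomyelinase gene, in hepatocytes, since the albumin promoter drives Cre in these cells, and the fatty acid served as a culture model of steatohepatitis. Smpd3 averaged 7.82 ± 1.11 TPM in HKO with PA, 46.0 ± 2.36 in FLOX with PA, 5.29 ± 0.715 in HKO with vehicle and 32.0 ± 4.09 in FLOX with vehicle (SD, n = 4 each), and the 2 genotypes did not overlap.

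A ribosome joins a small subunit, which reads the mRNA, to a large subunit, which makes the peptide bond. Cells build the cytosolic ribosome from nuclear genes that are transcribed at high and closely matched rates. Their mRNAs typically begin with a C and a run of pyrimidines, the 5′ TOP tract, through which mTORC1 and LARP1 set their translation and stability. The mitochondrial ribosome translates the few mRNAs of the mitochondrial genome, and its protein subunits are also encoded in the nucleus and imported. Hepatocytes, which export much plasma protein and oxidise fatty acids, depend on both.

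The start of transcription is where the sets differ in sequence, so windows from 80 bases before to 20 bases after the annotated start are shown for members that the results turn on. They come from RefSeq's promoters for build GRCm38.p6, which matched 57 cytosolic and 69 mitochondrial members by symbol. Capitals mark a C at the start that is followed on the sense strand by at least 4 bases that are each C or T, and the letters CCGGAAG on either strand, the core bound by ETS factors. The reverse complement of CCGGAAG also meets the pyrimidine pattern when it lies at the start.
Rplp2 (chr7:141447571-141447670, plus strand): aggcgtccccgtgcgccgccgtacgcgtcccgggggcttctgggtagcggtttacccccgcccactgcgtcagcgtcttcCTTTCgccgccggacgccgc
Rps21 (chr2:180257299-180257398, plus strand): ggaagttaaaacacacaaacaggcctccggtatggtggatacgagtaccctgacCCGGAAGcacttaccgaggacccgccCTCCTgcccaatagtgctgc
Rpl35 (chr2:39005112-39005211, minus strand): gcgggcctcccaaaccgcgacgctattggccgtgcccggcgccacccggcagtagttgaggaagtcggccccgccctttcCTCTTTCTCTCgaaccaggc
Rps15a (chr7:118116128-118116227, minus strand): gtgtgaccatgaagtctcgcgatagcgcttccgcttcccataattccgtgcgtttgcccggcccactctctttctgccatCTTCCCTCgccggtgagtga
Rpl12 (chr2:32961632-32961731, plus strand): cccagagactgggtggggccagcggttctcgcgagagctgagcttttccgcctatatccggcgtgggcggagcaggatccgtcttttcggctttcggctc
Rpl39 (chrX:37085203-37085302, minus strand): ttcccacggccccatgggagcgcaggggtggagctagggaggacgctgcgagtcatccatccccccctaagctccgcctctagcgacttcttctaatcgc
Rplp2, Rpl35 and Rps15a begin with the run, as does the start shown for Rps21, while the other annotated start of Rps21 does not. Rpl12 and Rpl39 have no run at the annotated base, which can lie a few bases from the one used.

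For the mitochondrial ribosome, the members chosen include some that were higher and some that were lower with PA.
Mrps18b (chr17:35916421-35916520, minus strand): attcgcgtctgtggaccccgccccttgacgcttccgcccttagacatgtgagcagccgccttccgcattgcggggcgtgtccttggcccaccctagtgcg
Mrpl43 (chr19:45006423-45006522, minus strand): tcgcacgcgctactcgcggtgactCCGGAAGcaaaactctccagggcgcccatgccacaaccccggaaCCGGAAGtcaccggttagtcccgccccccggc
Mrpl3 (chr9:105053188-105053287, plus strand): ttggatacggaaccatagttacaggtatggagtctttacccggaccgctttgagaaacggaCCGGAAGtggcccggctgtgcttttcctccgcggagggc
Mrpl47 (chr3:32736736-32736835, minus strand): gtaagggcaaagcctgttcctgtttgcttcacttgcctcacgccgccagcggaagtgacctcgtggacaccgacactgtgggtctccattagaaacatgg
Mrpl14 (chr17:45686269-45686368, plus strand): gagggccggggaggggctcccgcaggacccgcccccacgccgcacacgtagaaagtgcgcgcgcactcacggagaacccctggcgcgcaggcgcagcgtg
In the whole table the run at the start was present in 13 of 57 cytosolic members (22.8%), in 0 of 69 mitochondrial members and in 813 of 27025 genes (3.01%). CCGGAAG lay in the 300 bases of 24 cytosolic members (42.1%), of 26 mitochondrial members (37.7%), of 1912 of the 8887 tested genes with a promoter (21.5%) and of 9.93% of all genes. A match describes letters, not a bound site.

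Cytosolic members were among the most abundant transcripts. Mean TPM over the 16 samples ran from 66.4 for Rpl12 to 3551 for Rplp1, with a median of 1059 TPM. Rplp1, an acidic protein of the stalk that recruits elongation factors, was followed by Rpl41 and Rpl13a. Mitochondrial members ran from 9.64 TPM for Mrpl19 to 379.9 TPM for Mrpl52, with a median of 52.0 TPM, and the median of all tested genes was 11.8 TPM. Pseudogene copies can take reads from their parents. For 8 members the summed TPM of named pseudogenes exceeded the member's own, among them Rps13 at 185% and Mrpl23 at 669.6%. Mrpl23 and its copy therefore carry an uncertain split.

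Summed over the 77 genes, cytosolic transcripts reached 88806, 86757, 92073 and 92546 TPM in HKO with PA, and 105738, 94140, 96168 and 98579 TPM in FLOX with PA. HKO with vehicle held 85490, 81512, 82912 and 79881 TPM, and FLOX with vehicle 86734, 92400, 93412 and 91299 TPM. Every HKO sample lay below every FLOX sample of the same treatment, and every sample with PA lay above every vehicle sample of the same genotype. The sums differed by -8.73% between HKO and FLOX with PA, by -9.36% between them with vehicle, by 9.21% between PA and vehicle in HKO and by 8.46% between PA and vehicle in FLOX.

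Mitochondrial members summed to 4940 ± 84.7 TPM in HKO with PA, 5394 ± 252 TPM in FLOX with PA, 4808 ± 68.9 TPM in HKO with vehicle and 5317 ± 141 TPM in FLOX with vehicle (SD, n = 4 each). HKO lay below FLOX without overlap under both treatments, while PA and vehicle samples overlapped in each genotype. The ratio of the cytosolic to the mitochondrial sum, taken within a sample, was 18.0 to 18.5 in HKO with PA, 18.0 to 18.7 in FLOX with PA, 16.8 to 17.5 in HKO with vehicle and 16.9 to 17.3 in FLOX with vehicle. It separated PA from vehicle in both genotypes and did not separate the genotypes. These sums are descriptions without a test.

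**Figure D1:**
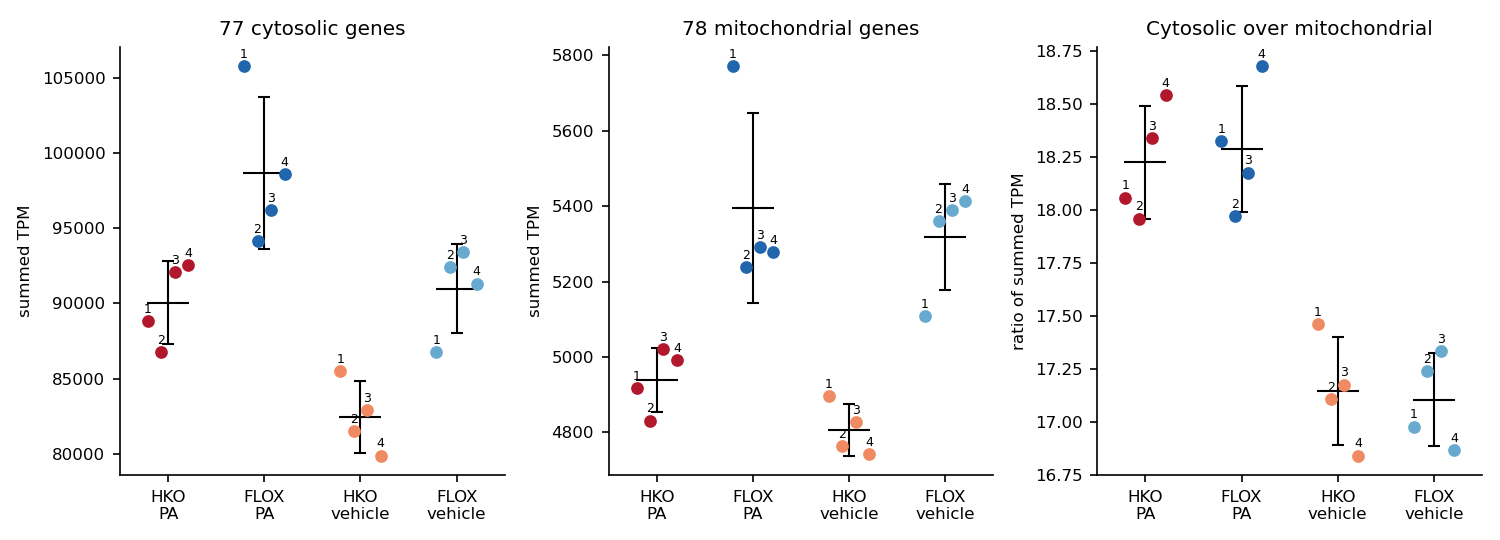
Summed TPM of the 77 cytosolic genes (left), of the 78 mitochondrial genes (middle) and their ratio (right) per sample, with replicate numbers, and the mean and SD of each group of 4. HKO samples lie below FLOX samples of the same treatment in both sums, and the ratio is 18.0 to 18.7 with PA and 16.8 to 17.5 with vehicle.

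The libraries numbered 1 of both FLOX groups differed in sign from the rest of their group in how long and short transcripts compared. The search for outlying samples given below flagged neither for this gap. The log2 gap between long and short transcripts was -0.17 in FLOX with PA replicate 1 and 0.04 to 0.10 in the other 3 samples of that group. In FLOX with vehicle it was 0.07 in replicate 1 and -0.17 to -0.09 in the other 3. FLOX with PA replicate 1 had the highest cytosolic and mitochondrial sums of its group, and FLOX with vehicle replicate 1 the lowest. Without this pair the cytosolic sum differed by 4.25% between PA and vehicle in FLOX, by -6.49% between genotypes with PA and by -10.7% between them with vehicle. The mitochondrial sum differed by 1.45% between PA and vehicle in FLOX with all samples and by -2.19% without the pair. Without it, the mitochondrial sums of FLOX with PA (5238 to 5291 TPM) lay wholly below those with vehicle (5359 to 5413 TPM). Between genotypes that sum then differed by -6.24% with PA and by -10.8% with vehicle. Members have short transcripts, with a median length of 711.5 bases for cytosolic and 1052 bases for mitochondrial members against 1923 bases for tested genes. Results that rest on this pair are therefore also given without it.

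Markers of hepatocytes were high throughout, with summed levels of 46622 to 48108 TPM in HKO with PA, 44351 to 45865 TPM in FLOX with PA, 60453 to 61671 TPM in HKO with vehicle and 56766 to 57443 TPM in FLOX with vehicle. Of 6 macrophage markers, 4 were under 1 TPM in every sample, and Cd68 made up nearly all of the sum. Of 5 cholangiocyte markers, Spp1 dominated the sum, which was 337.9 to 385.6 TPM in HKO with PA, 196.5 to 241.6 TPM in FLOX with PA, 298.5 to 324.0 TPM in HKO with vehicle and 180.3 to 191.2 TPM in FLOX with vehicle. Of 7 markers of stellate cells and fibroblasts, 6 stayed under 1 TPM in every sample, and all 6 lymphocyte and neutrophil markers did. The hepatocyte and cholangiocyte sums were higher in HKO under both treatments, where the ribosomal sums were lower. The hepatocyte sum was lower with PA, where the cytosolic sum was higher. Of the 7 hepatocyte markers, 4 were called higher and 1 lower in HKO under each treatment. Of 4 tested cholangiocyte markers, 2 were called higher and 1 lower in HKO with vehicle, and 1 higher and 0 lower with PA. Shares of all genes were 4.24% higher and 5.50% lower with PA, and 4.11% and 7.56% with vehicle. With PA, Apoa1 was lower in HKO, at 8544 to 9225 against 10829 to 13370 TPM. With vehicle it was at 12595 to 13249 against 15144 to 16058 TPM. Cd68 was higher in HKO without overlap under both treatments. Cholangiocyte markers were divided with vehicle, where Spp1 and Krt19 were higher in HKO without overlap. Krt7 was then lower in HKO, at 1.13 to 1.25 against 2.04 to 2.5 TPM, and Sox9 at 22.06 to 23.42 against 24.2 to 29.67 TPM. The part of these markers in the results was not tested. In bulk RNA, fewer cells of a type and less RNA per cell cannot be told apart.

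HKO samples had lower ribosomal protein transcripts of both kinds than FLOX samples. Cre comes with the deletion in this design, so it cannot be told apart from loss of Smpd3. With PA, 32 of 77 cytosolic genes were lower in HKO than in FLOX and 0 were higher at a limma adjusted p below 0.05, where 5.50% of all tested genes were lower and 4.24% higher. There, 76 of 77 estimates lay below 0, against 52.1% of all genes, and the median log2 fold change was -0.13 against -0.01 for all genes. The exception was Rpl12, at 0.12 ± 0.068 (estimate ± SE, limma adjusted p = 0.334). With vehicle, 39 of 77 were lower and 0 higher, against 7.56% and 4.11% of all genes. All 77 estimates lay below 0, against 56.0% of all genes, with a median of -0.15, or -9.95%, against -0.02 for all genes. The 4 HKO samples lay wholly below the 4 FLOX samples for 37 cytosolic genes with PA (7.83% of all genes) and for 45 with vehicle (11.7% of all genes).

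The median of the mitochondrial set was lower by a like amount. A smaller share was called than of the cytosolic set, where it was 41.6% with PA and 50.6% with vehicle. With PA, 12 of 78 genes (15.4%) were lower in HKO and 0 higher, against 5.50% and 4.24% of all genes. There, 72 estimates lay below 0, against 52.1% of all genes, and the median was -0.11. With vehicle, 20 (25.6%) were lower and 0 higher, against 7.56% and 4.11% of all genes. There, 73 estimates lay below 0, against 56.0% of all genes, and the median was -0.15. By symbol, the 49 Mrpl genes had 8 lower and the 29 Mrps genes 4 lower with PA, and 11 and 9 lower with vehicle. In the cytosol, the 46 genes of the large subunit and the 31 of the small subunit had 16 each lower with PA, and 24 and 15 lower with vehicle. The 2848 other tested genes with transcripts of at most 1036 bases had medians of -0.03 with PA and -0.05 with vehicle.

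**Figure D2:**
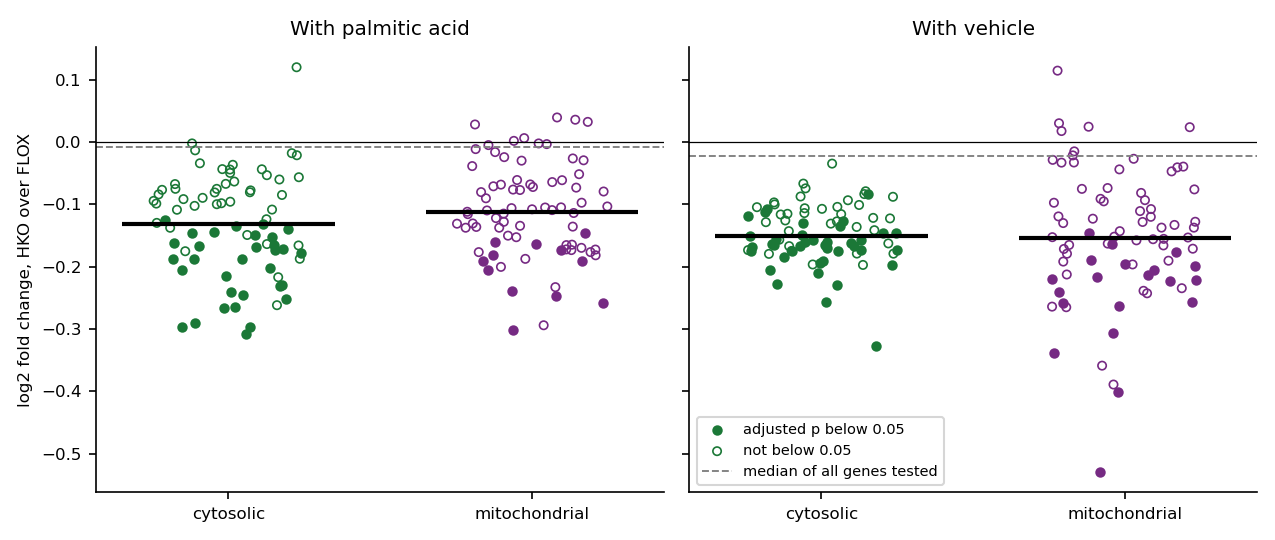
Log2 fold change of HKO over FLOX for each of the 77 cytosolic and 78 mitochondrial genes, with PA (left) and with vehicle (right). Filled points have a limma adjusted p below 0.05, black bars are the medians of the sets (-0.13 and -0.11 with PA, -0.15 and -0.15 with vehicle), and the dashed line is the median of all tested genes. Nearly all points lie below that line.

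Among cytosolic genes, Rps27a encodes a small-subunit protein that is made as a fusion with ubiquitin. It read 473.8, 464.3, 515.6 and 502.9 TPM in HKO with PA, against 640.3, 581.8, 581.7 and 588.8 TPM in FLOX with PA. With vehicle it read 487.4, 455.3, 462.6 and 400.1 TPM in HKO, against 508.9, 527.6, 531.2 and 509.3 TPM in FLOX. The genotypes did not overlap under either treatment. The log2 fold changes were -0.29 ± 0.053 with PA (limma adjusted p = 0.00205) and -0.21 ± 0.053 with vehicle (limma adjusted p = 0.0200). The call with PA was kept in 32 of 32 alternatives and the call with vehicle in 28.

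Rpl9, a protein of the large subunit, showed the same separation. Its values were 916.6, 904.7, 968.3 and 987.4 TPM in HKO with PA, against 1217, 1066, 1096 and 1104 TPM in FLOX with PA. HKO with vehicle read 969.0, 925.2, 953.2 and 846.1 TPM, against 1031, 1072, 1097 and 1068 TPM in FLOX with vehicle. No HKO sample reached a FLOX sample of its treatment, and the log2 fold changes were -0.25 ± 0.047 with PA (limma adjusted p = 0.00312) and -0.21 ± 0.047 with vehicle (limma adjusted p = 0.00876). PA did not move Rpl9 past the threshold in either genotype, at 0.03 in HKO and 0.07 in FLOX.

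Rpl39, a very short protein that lines the exit tunnel of the large subunit, had a log2 fold change of -0.31 ± 0.069 with PA, the lowest among cytosolic genes, and -0.23 ± 0.069 with vehicle. Rps21, a small-subunit protein with the pyrimidine run at 1 of its 2 annotated starts, fell by 0.27 with PA and by 0.26 with vehicle on the log2 scale. Rps29, Rps15a and Rpl34 fell by 0.30, 0.30 and 0.26 with PA and did not pass the threshold with vehicle, at -0.18, -0.17 and -0.20. Rps13 and Rpl35 fell by 0.33 and 0.23 with vehicle and did not pass with PA, at -0.26 and -0.10. Whether these 5 differ between treatments is the interaction, in which none was called. The level of Rps13 lies beside abundant named pseudogenes, as given above. The calls with PA of Rpl39, Rps21, Rps29, Rps15a and Rpl34 were kept in 21 to 29 of 32 alternatives. With vehicle, the call of Rpl39 was kept in 13, that of Rps21 in 23, that of Rps13 in 24 and that of Rpl35 in 31.

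In mitochondria, Mrpl12 forms the stalk of the large subunit and also binds the mitochondrial RNA polymerase. It read 122.5, 116.1, 123.8 and 114.3 TPM in HKO with PA, against 152.6, 133.5, 139.1 and 141.7 TPM in FLOX with PA. HKO with vehicle read 116.5, 114.4, 110.1 and 114.1 TPM, against 128.1, 132.5, 136.2 and 135.1 TPM in FLOX with vehicle. The genotypes were separate under both treatments. The log2 fold changes were -0.25 ± 0.041 with PA (limma adjusted p = 0.000926) and -0.22 ± 0.041 with vehicle (limma adjusted p = 0.00219), with no call for PA in either genotype.

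Mrpl47 had the largest genotype difference of any member, with vehicle. It read 13.2, 13.4, 14.5 and 14.7 TPM in HKO with PA, against 16.1, 13.4, 14.7 and 14.2 TPM in FLOX with PA. HKO with vehicle read 9.61, 9.91, 10.7 and 6.62 TPM, against 14.3, 14.9, 12.04 and 13.1 TPM in FLOX with vehicle. The genotypes overlapped with PA, at a log2 fold change of -0.06 ± 0.110, and were separate with vehicle, at -0.53 ± 0.110 (limma adjusted p = 0.00493). Mrpl1, a protein of the stalk beside the exit site for tRNA, was at -0.18 with PA and fell by 0.40 with vehicle (limma adjusted p = 0.000793).

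Further mitochondrial genes lower in HKO with PA were Mrpl49 (-0.30), Mrps36 (-0.26), Mrpl9 (-0.24), Mrpl15 (-0.21) and Mrpl22 (-0.19). With vehicle they were Mrpl3 (-0.34), Mrpl52 (-0.31), Mrps6 (-0.26) and Mrps10 (-0.26). The product of Mrps36 is now known as a part of the oxoglutarate dehydrogenase complex rather than of the ribosome. The calls of Mrpl12 with PA and of Mrpl47, Mrpl1 and Mrps10 with vehicle were kept in 32 of 32 alternatives. Those of Mrpl49, Mrps36, Mrpl9, Mrpl15 and Mrpl22 with PA were kept in 18 to 30, and those of Mrpl3, Mrpl52 and Mrps6 with vehicle in 17 to 25.

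The count of genotype calls depended on the scaling between samples, while the sign of the set medians did not. Median-ratio scaling, which sets the typical gene equal across samples, left 3 cytosolic genes called with PA and 0 with vehicle, and 4 mitochondrial genes with PA and 7 with vehicle. The set medians stayed at -0.13 in the cytosol for both treatments, and at -0.11 with PA and -0.13 with vehicle in mitochondria. Over the 32 alternatives the cytosolic median ran from -0.15 to -0.07 with PA and from -0.18 to -0.12 with vehicle. Single members were less stable. Over these alternatives, the estimates below 0 with PA numbered 57 to 76 in the cytosol and 56 to 74 in mitochondria. With vehicle they numbered 76 to 77 in the cytosol and 64 to 75 in mitochondria. Without both FLOX libraries numbered 1, the cytosolic calls numbered 23 with PA and 61 with vehicle. With median-ratio scaling as well, these calls numbered 2 with PA and 37 with vehicle.

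With TPM as deposited, PA left the cytosolic set near the typical gene and the mitochondrial set below it. In HKO, 48 of 77 cytosolic genes were higher with PA than with vehicle and 0 were lower, where 29.4% of all tested genes were higher and 13.1% lower. In FLOX, 35 were higher and 0 lower, against 23.0% and 11.5% of all genes. All 77 estimates lay above 0 in both genotypes, against 65.6% of all genes in HKO and 65.5% in FLOX. The medians were 0.13 in HKO and 0.12 in FLOX, but the median of all genes was itself 0.11 and 0.10, so the set exceeded it by 0.02 in each. Over the 32 alternatives this excess ran from -0.0004 to 0.12 in HKO and from -0.09 to 0.10 in FLOX. It was above 0 in 31 of them in HKO and in 26 in FLOX. The calls of the 2 genotypes shared 30 genes, 62.5% of the HKO calls and 85.7% of the FLOX calls. Over all genes, 18.9% were higher in both, which is 64.2% of the HKO calls and 82.2% of the FLOX calls in that direction, so the shares were near those of all genes.

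The rise depended on the scaling. Median-ratio scaling moved the median of all genes with PA to 0.00 in HKO and 0.01 in FLOX, and the cytosolic set to 0.01 in both, with 1 call in each genotype. Correcting for length and GC content left 15 calls in HKO and 10 in FLOX. In FLOX without both libraries numbered 1, 12 genes were higher and 1 lower with a median of 0.06, against 0.13 for all genes. With median-ratio scaling as well, 1 was higher and 14 lower with a median of -0.10, so the direction in FLOX turned.

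**Figure D3:**
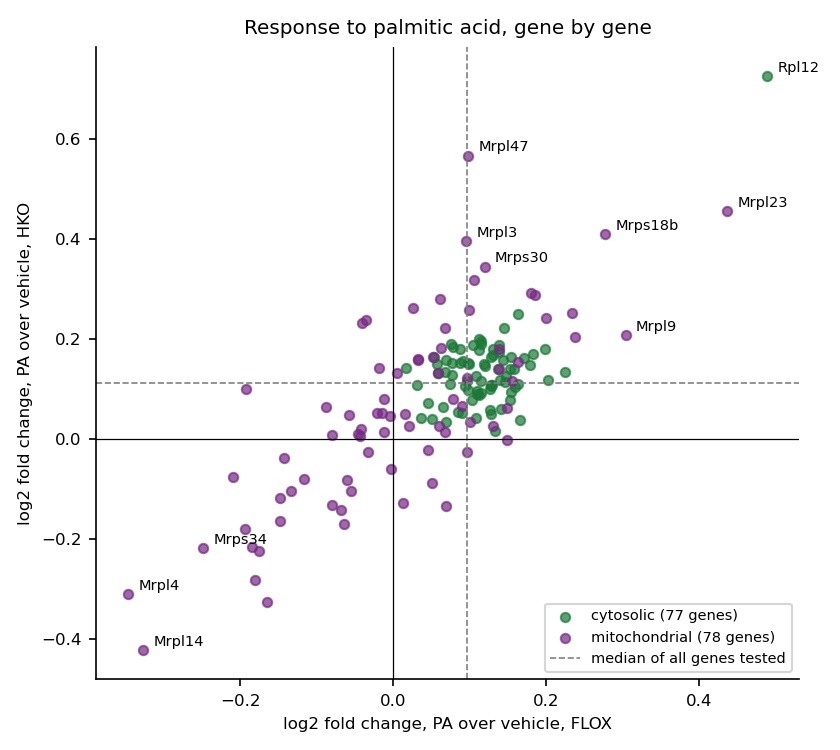
Log2 fold change of PA over vehicle in FLOX (horizontal) and HKO (vertical) for each cytosolic and mitochondrial gene, with dashed lines at the medians of all tested genes. Cytosolic genes form a narrow cloud around the crossing of the dashed lines with Rpl12 far outside it, and mitochondrial genes spread more widely along the diagonal, with some called in each direction.

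One cytosolic gene left that cloud. Rpl12 encodes a large-subunit protein at the base of the stalk, where it helps to hold the site that activates elongation factors. It read 84.1, 79.7, 75.3 and 96.8 TPM in HKO with PA, against 52.3, 49.8, 51.3 and 47.3 TPM in HKO with vehicle. FLOX read 74.8, 78.1, 71.1 and 83.9 TPM with PA, against 52.4, 56.7, 53.2 and 55.5 TPM with vehicle. PA samples lay above vehicle samples without overlap in both genotypes. The log2 fold change was 0.73 ± 0.068 in HKO (limma adjusted p = 5.28e-07) and 0.49 ± 0.068 in FLOX (limma adjusted p = 4.53e-05), and both calls were kept in 32 of 32 alternatives, with estimates of 0.60 to 0.78 in HKO and 0.33 to 0.53 in FLOX. Rpl12 was also the least abundant cytosolic member, with a mean of 66.4 TPM against a set median of 1059 TPM. Its 2 named pseudogenes summed to at most 0.21 TPM. Copies under other names were not searched, so reads of Rpl12 assigned to such copies would not be seen here.

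Other cytosolic genes with larger changes were closer to the set. In HKO, Rplp2, the partner of Rplp1 in the stalk, rose by 0.25, Rpl10a by 0.22, Rpl13 by 0.20, Rps24 by 0.20 and Rpl23a by 0.19 on the log2 scale. In FLOX, Rpl30 rose by 0.22, Rps27a by 0.20, Rpl26 by 0.20, Rpl36 by 0.18 and Rps14 by 0.18. With median-ratio scaling and without both FLOX libraries numbered 1, Rps27a, Rpl26, Rpl36 and Rps14 had estimates below 0 in FLOX, and Rpl30 stayed above 0. The call of Rpl36 in FLOX was kept in 14 of 32 alternatives, and those of the other 9 changes just given in 28 to 30.

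Mitochondrial genes were called in both directions with PA. In HKO 18 of 78 genes were higher (23.1%, against 29.4% of all genes) and 10 lower (12.8%, against 13.1%), with a median of 0.05. In FLOX 7 were higher (8.97%, against 23.0%) and 8 lower (10.3%, against 11.5%), with a median of 0.02. Higher calls were thus fewer than among all genes and lower calls near their share. The balance depended on the scaling. Median-ratio scaling gave 4 higher and 20 lower in HKO, with a median of -0.07, and 2 higher and 12 lower in FLOX, with a median of -0.08. Without both FLOX libraries numbered 1 as well, there were 5 higher and 24 lower in HKO, and 1 higher and 35 lower in FLOX, with a median of -0.20. Against the median of all genes the set stood at -0.06 in HKO and -0.08 in FLOX, and it lay below that median in 31 of 32 alternatives in each genotype. All 15 genes called in FLOX were called the same way in HKO, 7 higher and 8 lower, which is 53.6% of the HKO calls. Over all genes, 18.9% were higher and 9.48% lower in both genotypes, which is 66.8% of the HKO calls and 82.4% of the FLOX calls. Across the 78 genes the responses of the genotypes, which share no sample, correlated at r = 0.762 and rho = 0.733, and across the 77 cytosolic genes at r = 0.654 and rho = 0.167. Genes are not independent replicates, and the cytosolic r contains Rpl12.

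Of the genes that rose, Mrps18b encodes one of the several related S18 proteins of the mitochondrial ribosome. It read 181.5, 184.1, 192.4 and 202.9 TPM in HKO with PA, against 141.4, 143.1, 140.3 and 146.3 TPM in HKO with vehicle. FLOX read 196.9, 197.5, 201.7 and 203.8 TPM with PA, against 168.9, 163.4, 165.2 and 161.8 TPM with vehicle. All PA samples were above all vehicle samples. The log2 fold change was 0.41 ± 0.034 in HKO (limma adjusted p = 1.53e-07) and 0.28 ± 0.034 in FLOX (limma adjusted p = 1.36e-05).

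Mrpl9, Mrpl45, Mrpl44, Mrpl17 and Mrpl43, all named for the large subunit, also rose in both genotypes, by 0.20 to 0.29 in HKO and by 0.19 to 0.30 in FLOX, where Mrpl17 and Mrpl43 had estimates below 0 with median-ratio scaling and without both FLOX libraries numbered 1. In HKO, Mrpl47 rose by 0.57, Mrpl3 by 0.40, Mrps30 by 0.34, Mrps35 by 0.32 and Mrpl19 by 0.29, and in FLOX these 5 were at 0.10, 0.10, 0.12, 0.11 and 0.18 without passing the threshold. In HKO the call of Mrps35 was kept in 14 of 32 alternatives, that of Mrpl19 in 21 and those of the other 3 in 32. Mrpl47 and Mrpl3 are the members given above as lower in HKO than in FLOX with vehicle. The comparisons share the HKO vehicle samples.

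Of the genes that fell, Mrpl14 encodes a large-subunit protein at the interface with the small subunit. It read 94.8, 77.4, 86.2 and 87.5 TPM in HKO with PA, against 123.5, 112.6, 116.6 and 111.1 TPM in HKO with vehicle. FLOX read 103.2, 91.2, 84.5 and 101.7 TPM with PA, against 113.6, 120.2, 121.6 and 121.5 TPM with vehicle. No PA sample reached a vehicle sample of its genotype. The log2 fold change was -0.42 ± 0.066 in HKO (limma adjusted p = 0.000104) and -0.33 ± 0.066 in FLOX (limma adjusted p = 0.00133).

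Mrpl4 averaged 22.0 ± 0.354 TPM with PA and 27.5 ± 1.41 TPM with vehicle in HKO, and 22.1 ± 1.29 TPM with PA and 28.3 ± 1.53 TPM with vehicle in FLOX (SD, n = 4 each). It fell by 0.31 in HKO and by 0.35 in FLOX on the log2 scale, and its 2 genotypes overlapped under both treatments. Mrps34, a small-subunit protein, fell by 0.22 in HKO and 0.25 in FLOX, Mrpl42 by 0.22 in HKO and 0.18 in FLOX, Mrpl50 by 0.18 in HKO and 0.19 in FLOX, and Mrps36 by 0.28 in HKO and 0.18 in FLOX. Mrpl34 fell by 0.32 in HKO and was at -0.17 in FLOX. The falls of Mrpl14, Mrpl4, Mrps34, Mrpl42 and Mrpl50 were called in 32 of 32 alternatives in both genotypes, and that of Mrps36 in 32 in HKO and 14 in FLOX.

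**Figure D4:**
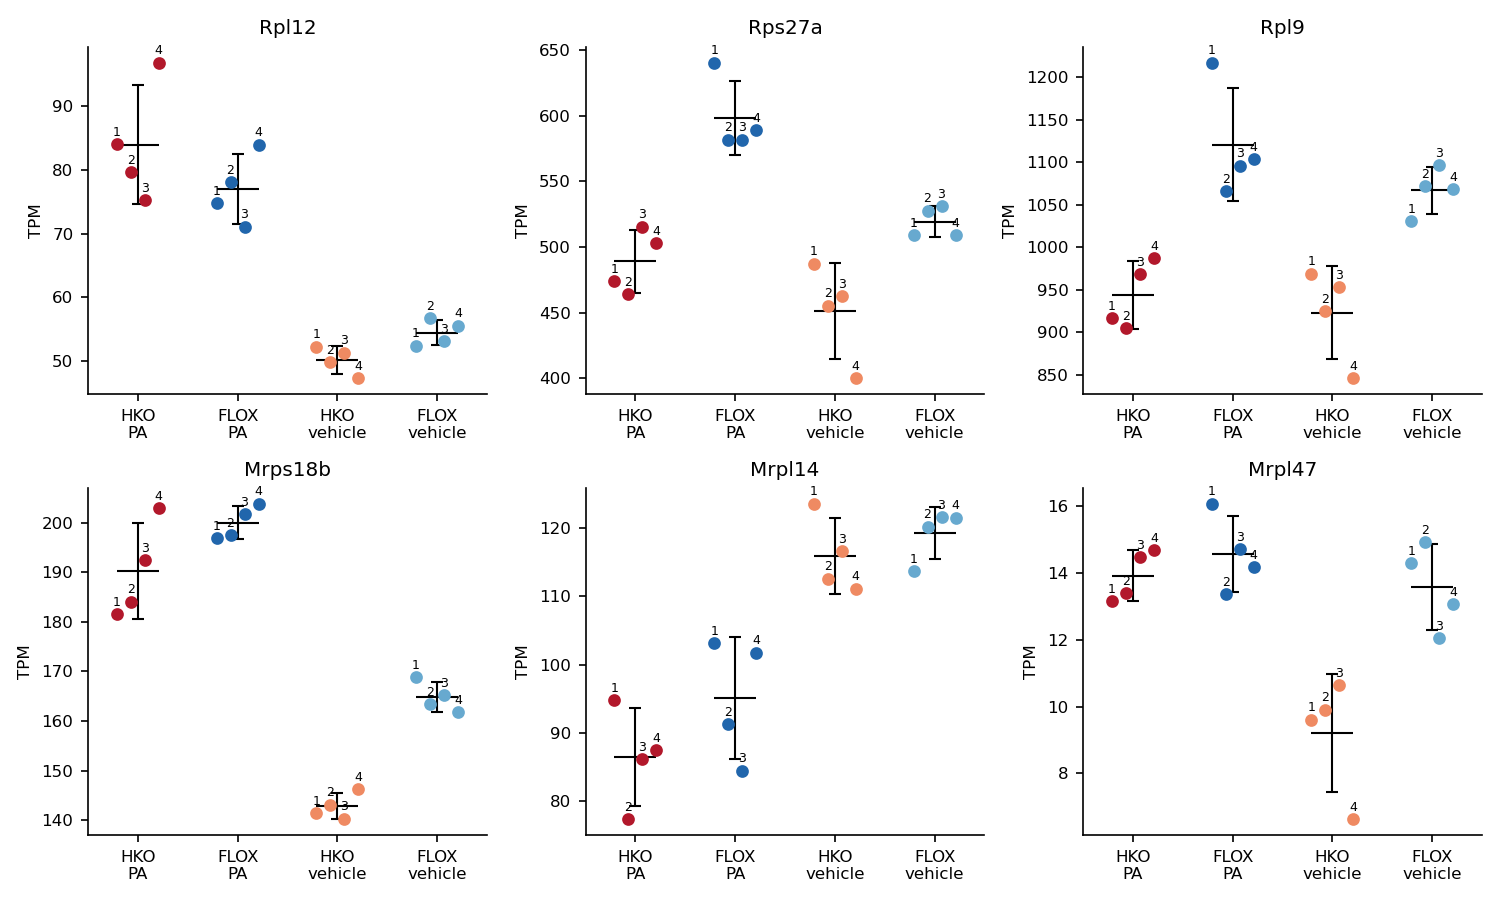
TPM per sample, with replicate numbers, and the mean and SD of each group of 4, for 3 cytosolic genes (top) and 3 mitochondrial genes (bottom). Rpl12 and Mrps18b are higher and Mrpl14 is lower with PA in both genotypes, Rps27a and Rpl9 are lower in HKO under both treatments, and Mrpl47 is low in the HKO vehicle samples.

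With all samples, the response to PA was not shown to differ between the genotypes for any member. In the interaction, the PA response of HKO less that of FLOX, 0 of 77 cytosolic and 0 of 78 mitochondrial genes were called by limma, against 0.152% of all genes in the higher and 0.0422% in the lower direction. At an unadjusted p below 0.05 there were 3 cytosolic genes (3.90%) and 8 mitochondrial genes (10.3%), against 7.53% of all genes. The lowest limma adjusted p was 0.515 for Rplp0 in the cytosol and 0.309 for Mrps30 in mitochondria. Without both FLOX libraries numbered 1, Rpl35 alone was called, with an interaction of 0.22 ± 0.0366 (limma adjusted p = 0.0326). It was named after its value was seen. The cytosolic set had 41 of 77 interaction estimates above 0 with all samples, at a median of 0.01, against 0.02 for all genes. Without that pair it had 68, at a median of 0.07 against -0.03 for all genes, and with median-ratio scaling as well 71, at a median of 0.10 against 0.01.

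**Figure D5:**
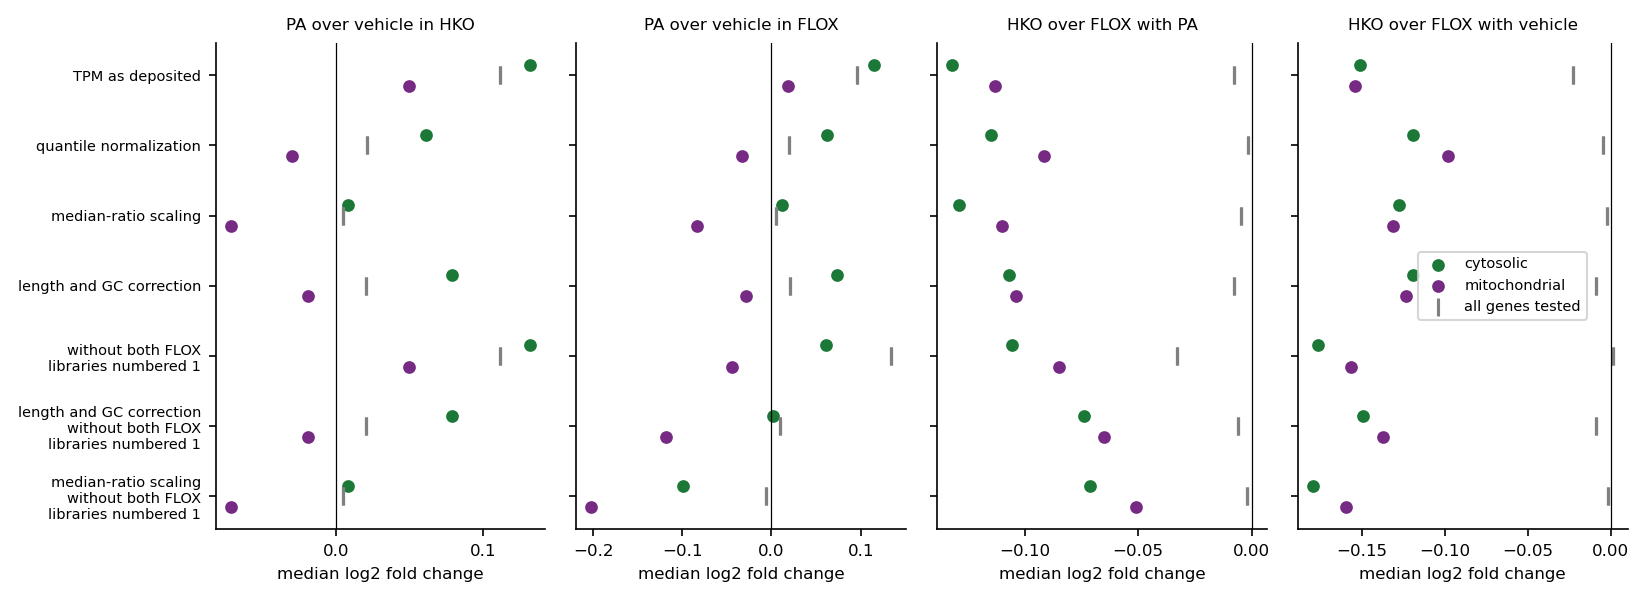
Median log2 fold change of the cytosolic set, the mitochondrial set and all tested genes under 7 settings, 1 panel per comparison. Both sets lie below all genes between the genotypes under every setting drawn, while the cytosolic set with PA lies near all genes under median-ratio scaling and below 0 in FLOX when both libraries numbered 1 are also left out.

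Genes that build ribosomes had larger medians with PA than the ribosomal proteins. Of 69 genes of rRNA synthesis and cytosolic ribosome assembly, 62 were higher with PA in HKO (89.9%, against 29.4% of all genes) and 43 in FLOX (62.3%, against 23.0%), with 0 lower in either and medians of 0.38 in HKO and 0.21 in FLOX. With median-ratio scaling 48 were higher in HKO and 22 in FLOX, 1 was lower in each, and the medians were 0.26 in HKO and 0.11 in FLOX, or 0.07 in FLOX without both libraries numbered 1. In HKO against FLOX, 7 were lower and 0 higher with PA (10.1% lower, against 5.50% of all genes, median -0.04), and 28 lower and 0 higher with vehicle (40.6% lower, against 7.56%, median -0.19). Las1l, the nuclease that cuts spacer RNA during rRNA processing, had 136.2 ± 6.36 TPM in HKO with PA, 201.7 ± 14.8 in FLOX with PA, 87.7 ± 2.67 in HKO with vehicle and 132.2 ± 5.44 in FLOX with vehicle (SD, n = 4 each). It rose by 0.63 with PA in HKO and by 0.60 in FLOX, and fell in HKO against FLOX by 0.56 with PA and by 0.59 with vehicle. Nop2, an rRNA methyltransferase, rose by 0.63 with PA in HKO and by 0.33 in FLOX. Eif6, which keeps the subunits apart, fell in HKO by 0.23 with PA and by 0.29 with vehicle.

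Translation factors and other genes with 5′ TOP transcripts formed a list of 18. With PA 14 were higher in HKO (77.8%, against 29.4% of all genes) and 10 in FLOX (55.6%, against 23.0%). In HKO against FLOX, 3 were lower with PA (16.7%, against 5.50%), where 5 estimates lay above 0, and 8 with vehicle (44.4%, against 7.56%). No gene of the list was called in the other direction in these comparisons. The median between genotypes was -0.06 with PA and -0.12 with vehicle, and with median-ratio scaling and without both FLOX libraries numbered 1 it was -0.01 with PA and -0.13 with vehicle. With median-ratio scaling 5 were higher with PA in each genotype, at medians of 0.05 in HKO and 0.03 in FLOX, and without both FLOX libraries numbered 1 the median in FLOX turned to -0.05, with 5 higher and 4 lower. Tpt1 rose by 0.53 in HKO and by 0.47 in FLOX with PA, and Pabpc1, the poly(A)-binding protein, by 0.59 in HKO and 0.36 in FLOX. Hnrnpa1 and Nap1l1 fell in HKO against FLOX by 0.23 and 0.26 with PA and by 0.31 and 0.26 with vehicle.

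Of 43 tested genes of mitochondrial translation and ribosome assembly, 12 were higher (27.9%, against 29.4% of all genes) and 2 lower with PA in HKO, and 5 were higher (11.6%, against 23.0%) and 3 lower in FLOX. Their medians were 0.14 in HKO and 0.06 in FLOX, and with median-ratio scaling 0.03 in HKO and -0.04 in FLOX, so the sign in FLOX turned. In HKO against FLOX, 1 was lower with PA (2.33%, against 5.50% of all genes) and 5 with vehicle (11.6%, against 7.56%). None was higher, and the median was -0.10 under each treatment. Ddx28, a helicase of mitochondrial ribosome assembly, rose by 0.55 in HKO and by 0.34 in FLOX, and Gfm2, a factor that recycles mitochondrial ribosomes, fell by 0.19 in HKO and 0.17 in FLOX. Of 28 tested genes of growth control, 11 were higher (39.3%) and 5 lower (17.9%) with PA in HKO, against 29.4% and 13.1% of all genes. In FLOX 8 were higher (28.6%) and 4 lower (14.3%), against 23.0% and 11.5%. With median-ratio scaling 6 were higher and 8 lower in HKO, and 4 higher and 5 lower in FLOX. Myc, a transcription factor that drives ribosome synthesis, averaged 115.6 TPM in HKO with PA, 106.3 TPM in FLOX with PA, 71.1 TPM in HKO with vehicle and 78.4 TPM in FLOX with vehicle. It rose by 0.69 with PA in HKO and by 0.43 in FLOX. Deptor, an inhibitor of mTOR, fell by 0.73 in HKO and 0.61 in FLOX. Ddit4, another inhibitor of mTORC1, was higher in HKO by 0.43 with PA and 0.37 with vehicle. It was the 1 gene of 28 called higher (3.57%, against 4.24% of all genes with PA and 4.11% with vehicle). With vehicle 1 other gene of the list was lower in HKO (3.57%, against 7.56%), and with PA 0 were. None of these shares was above that of all genes.

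Close relatives outside the naming rule were measured as well. Rack1, a scaffold of the small subunit, rose with PA by 0.23 in HKO and by 0.15 in FLOX, where it was at -0.01 with median-ratio scaling and without both libraries numbered 1. The paralog Rps4l rose with PA by 0.34 in HKO and by 0.29 in FLOX. Rpl22l1 fell in HKO against FLOX by 0.49 with PA and was at -0.33 with vehicle.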

How the data were processed

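Per the labels' protocols, stranded total RNA libraries were made from 1 μg of RNA, and per the submitters' processing notes RSEM 1.3.3 was used with a human build, which cannot be that of mouse IDs. Aligner, mouse build and annotation: not given in the sources used here. The authors deposited TPM with 2 decimals. TPM keeps no depth, so the depth per sample is unknown and no counting interval was made. Nothing in the labels ties a replicate to its own mouse or culture, so p-values cover the spread among these samples alone, possibly a technical one.

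Symbols were matched for 94.0% of IDs, and lengths and pseudogene types were read from GENCODE vM21. Genes with at least 1 TPM in at least 4 of 16 samples entered limma 3.58.1 (R 4.3.3) as log2(TPM + 1), with a mean per group, a mean-variance trend, two-sided tests and Benjamini-Hochberg adjustment over 11858 genes at 0.05. Fold changes are on that scale, which understates those of low genes. The script was tested on simulated data. Members, lists and most alternatives were chosen with earlier results of these data known. Named were Smpd3, up to 6 called members per set, direction and comparison with the largest changes, the 3 highest and 2 lowest members by mean TPM, and up to 3 genes per list, direction and comparison. The text leaves some of these out, 1 related gene is not reported here, and the text gives Rplp0 and the interaction of Rpl35 after their values were seen. The 32 alternatives changed pseudocount, filter, scaling, trend, length and GC correction, samples, weights, block or the handling of pseudogenes.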

Additional observations from a re-analysis of the deposited data

Results flagged for a closer look

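Among 51 named members, the sums of both sets, their ratio and the gap between long and short transcripts, 220 groups of 4 samples were searched for 1 sample that lay far from the other 3, and 12 (5.45%) held one. Chance gives about 1 in 20. FLOX with PA replicate 1 was such a sample in 5 of them. It was high for the mitochondrial sum (5770 TPM), Rps27a (640.3 TPM), Rpl23a (2724 TPM), Rpl35 (724.7 TPM) and Rps20 (190.8 TPM). FLOX with vehicle replicate 1 was low for Rpl36 (1978 TPM), and FLOX with vehicle replicate 2 was high for Mrpl17 (229.1 TPM). In HKO with PA, replicate 3 was high for Rps20 (147.8 TPM) and replicate 2 was low for Mrpl44 (31.6 TPM). In HKO with vehicle, replicate 4 was low for Mrpl52 (291.6 TPM), and replicate 2 was low for Mrps10 (66.4 TPM) and Mrpl15 (51.8 TPM). No member moved in opposite directions with PA in the 2 genotypes without overlap.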

How the results depend on the processing

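The medians of both sets stayed below 0 between genotypes in all 32 alternatives, as did the cytosolic median above 0 with PA in HKO. Counts of calls moved as follows, first cytosolic with PA in HKO (48), PA in FLOX (35), HKO against FLOX with vehicle (39) and with PA (32). Median-ratio scaling gave 1, 1, 0 and 3, the length and GC correction 15, 10, 13 and 12, and quantile normalization 23 and 19 for PA in HKO and in FLOX. No filter gave 17, and no mean-variance trend 16, with PA in FLOX, 17 and 18 with vehicle, and 20 and 18 with PA between genotypes. Only the 2 groups compared gave 23 with PA in FLOX and 17 between genotypes with PA, and sample quality weights 64 with vehicle. Without both FLOX libraries numbered 1 there were 13 with PA in FLOX, 61 with vehicle and 1 in the interaction. Added after seeing the data, the length and GC correction without that pair gave 31, 5 and 7 for PA in HKO, PA in FLOX and HKO against FLOX with PA, and median-ratio scaling without it 1, 15 and 2. Leaving out 1 library gave 36 to 52, 16 to 44, 18 to 49 and 14 to 36.

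For mitochondrial genes, between genotypes with vehicle (20) and with PA (12), median-ratio scaling gave 7 and 4, quantile normalization 10 and 6, and with PA the length and GC correction 7, only the 2 groups compared 2, and leaving out both FLOX libraries numbered 1 7, or 5 and 4 with the length and GC correction and median-ratio scaling. With PA in FLOX (15) the last gave 36, of them 35 lower. Leaving out 1 library gave 14 to 25 with vehicle, 6 to 13 with PA, 22 to 31 for PA in HKO and 14 to 17 for PA in FLOX. The cause was not tested.

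Samples with the same replicate number had correlations of their deviations from the group means of -0.15 to 0.11. With 4 samples per group these cannot show whether the same number marks the same animal or preparation, so pairing was not resolved. The replicate block gave 14 cytosolic calls with PA in FLOX, against 35 without it, and 18 mitochondrial calls with PA in HKO, against 28 without it.

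Of 15736 results for named genes under alternatives, 14730 kept their side of the threshold. A further 772 fell short of it, 209 passed it anew and 25 reversed. Results called in neither fit count as kept even where their sign changed. A reversal was a change of sign with a call in either fit. With PA in FLOX and median-ratio scaling without the pair, the log2 fold changes were -0.00033 for Rps27a, -0.014 for Rpl26, -0.051 for Rpl36, -0.045 for Rps14, -0.047 for Rpl10a, -0.12 for Rpl13, -0.11 for Rpl23a, -0.24 for Rpl35, -0.068 for Rplp1, -0.098 for Rpl41, -0.18 for Rpl13a, -0.0082 for Mrpl17, -0.035 for Mrpl43, -0.20 for Mrps10, -0.066 for Rpl36al, -0.21 for Rps27l, -0.012 for Rack1 and -0.040 for Eif3l. With the length and GC correction, also without the pair, they were -0.022 for Rpl23a, -0.11 for Rpl35, -0.17 for Rps20 and -0.15 for Rps27l. Rpl35 was at -0.081 without the pair alone. Quantile normalization gave -0.019 for Rpl13 in FLOX and -0.0012 for Rpl41 in HKO.

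TPM hold shares, so a change in total RNA per cell is not seen. Depth is unknown, and low mitochondrial members such as Mrpl19 and Mrpl23 rest on few TPM.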

Other observations

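The genes encoded in mitochondrial DNA hold the mRNAs that the mitochondrial ribosome translates and its rRNAs. Of 15 tested, 2 were higher (13.3%, against 29.4% of all genes) and 2 lower (13.3%, against 13.1%) with PA in HKO, and 2 higher (13.3%, against 23.0%) and 1 lower (6.67%, against 11.5%) in FLOX by limma. In HKO against FLOX, 1 was lower with PA (6.67%, against 5.50%) and 0 were called with vehicle. Median-ratio scaling gave 2 higher and 7 lower with PA in HKO and 2 higher and 4 lower in FLOX. Quantile normalization gave 1 higher and 4 lower in HKO against FLOX with PA. They took 8.38 ± 0.214% of all TPM in HKO with PA, 8.69 ± 0.733% in FLOX with PA, 8.88 ± 0.193% in HKO with vehicle and 8.999 ± 0.154% in FLOX with vehicle (SD, n = 4 each). Across the 78 mitochondrial members, the log2 fold change with PA had a rank correlation with transcript length of 0.401 in HKO and 0.0570 in FLOX, and HKO against FLOX one of 0.252 with PA and -0.428 with vehicle. The comparisons share groups of samples. These members share their libraries, and the values are descriptions.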
